A study of Homo sapiens with 45 samples.

Results

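The fibroblast growth factor (FGF) ligand genes FGF3, FGF4, FGF5, FGF8, FGF9, FGF10, FGF17, FGF18, FGF19 and FGF20 were followed through chromatin contact profiles of HNES1, an established human pluripotent stem cell line, 5 days after naive cells were set on the way to the primed state. A contact was assigned to a gene when its captured fragment or its partner reached within 1000 bp of either RefSeq GRCh38 end of that gene and both fragments lay on 1 chromosome. All 10 genes had such a contact, and together they held 120 of the 152688 cis pairs listed. In poised-enhancer capture Hi-C, DNA fragments made by the enzyme DpnII are joined where they lie together in fixed nuclei, and RNA probes pull down the junctions of fragments that hold a poised enhancer.

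The 3 conditions were UNC6852 at 2.5 µM, a PROTAC that degrades EED, part of Polycomb repressive complex 2 (PRC2), UNC1999 at 1 µM, an inhibitor of its catalytic subunits EZH1 and EZH2, and an equal volume of the solvent DMSO. Each agent was added to naive cells 24 h before day 0 and renewed daily to day 5. On day 0 the naive medium was exchanged in all 3 conditions for N2B27 with XAV939. A condition comprised 15 libraries from 3 biological replicates, 4 technical libraries of each in batch 1 and 1 in batch 2. The deposited table gave 1 CHiCAGO score per pair and condition, pooled over these libraries, so each value below has no replicate, no SD and no test. The doses differ, so the values of the compounds stand side by side with no comparison of strength. The number of reads behind a score is unknown. All cells were of 1 line, and the identity of the cells cannot be checked against marker genes in a contact assay.

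FGF ligands bind receptor tyrosine kinases, most of them with heparan sulphate as a cofactor, and the receptors signal through the MAPK cascade. In pluripotent cells this cascade promotes exit from the naive state, and FGF5 is a widely used marker of the post-implantation epiblast in the mouse. Several other FGF genes lie under Polycomb marks in pluripotent cells and become active in the limb, brain or lung of the embryo.

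A score of 5 or more was counted as a call. Every listed pair reached it in at least 1 profile, so a pair without a call in a profile is a listed pair with a lower score there. The FGF ligand genes had 57 calls in the UNC6852 profile, 51 in the UNC1999 profile and 54 in the DMSO profile, which are 47.5%, 42.5% and 45% of their 120 pairs. Over all cis pairs the called shares were 46.1%, 42.3% and 42.4%, so the FGF shares lay near the background in each profile. The ratio of calls to DMSO was 1.06 for UNC6852 and 0.944 for UNC1999, beside 1.09 and 0.997 over all cis pairs.

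Which pairs were called differed more than how many. The UNC6852 profile held 19 of the 54 DMSO calls, a share of 35.2% (exact 95% binomial interval 22.7 to 49.4%, which covers counting error alone), beside 31.4% over all cis pairs. In UNC1999, 17 of the 54 DMSO calls were called again, 31.5% (19.5 to 45.6%), beside 29.3% over all cis pairs. Between the 2 compound profiles the agreement was of the same order, with 19 of the 57 UNC6852 calls (33.3%) also found in UNC1999, beside 29.1% in the background, and 19 of the 51 UNC1999 calls (37.3%) in UNC6852, beside 31.7%. A call in 1 profile was the common case: 91 of the 120 pairs were called once, 75.8% beside 77.5% over all cis pairs, and 13 were called in all 3, 10.8% beside 8.33%.

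Much of this agreement came from FGF20. Without the pairs of FGF20, 5 of 35 DMSO calls were found again in UNC6852, 14.3% (4.81 to 30.3%), and 6 of 35 in UNC1999, 17.1% (6.56 to 33.6%). FGF20 alone kept 14 of its 19 DMSO calls in UNC6852, 73.7% (48.8 to 90.9%), and 11 of 19 in UNC1999, 57.9% (33.5 to 79.7%). The kept calls of the other genes are given beside their median partner distance. The FGF20 partners lay a median of 157 kb away. Those of FGF5 lay 906 kb away, with 1 of 9 DMSO calls found again in each compound profile. Those of FGF10 lay 525 kb away, with 2 of 14 found again in UNC6852 and 3 of 14 in UNC1999. Those of FGF9 lay 1073 kb away, with 1 of 4 in UNC6852 and 0 of 4 in UNC1999. Those of FGF19 (119 kb) and FGF3 (108 kb) lay nearer than those of FGF20. They kept 0 of 3 and 0 of 2 DMSO calls in UNC6852, and 1 of 3 and 1 of 2 in UNC1999. The call kept in UNC1999 is the same pair for both genes, and these counts are small. FGF17, at 307 kb, kept 0 of 3 in either, and FGF8, at 178 kb, kept 1 of 1 in each. Over all cis pairs, 34.3% of DMSO calls at 100 to 500 kb were found again in UNC6852 and 18.0% of those over 500 kb, with 32.0% and 16.5% in UNC1999. Of the 120 FGF contacts, 55 spanned more than 500 kb (45.8%, beside 27.2% of all cis pairs). FGF5 gave 25 of the 55 and FGF10 gave 20, while FGF20 had 1 among its 37 pairs. The part of distance in these shares was not tested.

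**Figure D1:**
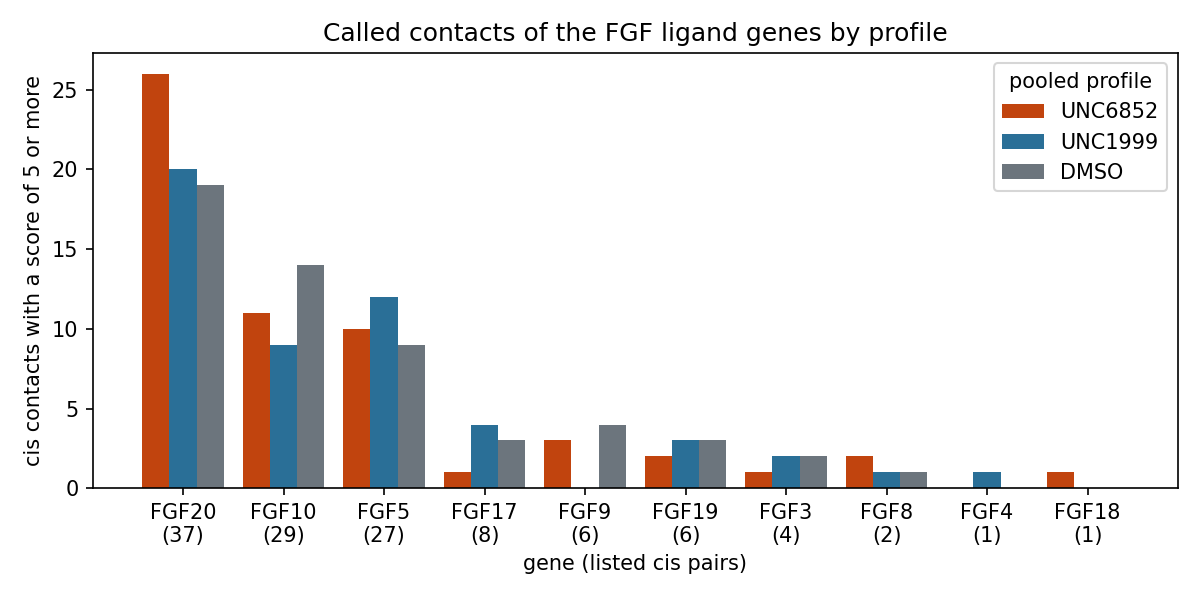
Number of cis contacts with a CHiCAGO score of 5 or more (y axis) for each FGF ligand gene (x axis, with its listed pairs in brackets), in the pooled UNC6852, UNC1999 and DMSO profiles from left to right. FGF20, FGF10 and FGF5 hold most of the calls, and FGF20 has 26, 20 and 19 of them.

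The 3 genes with most contacts were FGF20 with 37 pairs, FGF10 with 29 and FGF5 with 27. Of 9940 protein-coding genes with any cis pair, 173 had at least as many as FGF20, 287 as FGF10 and 330 as FGF5. The number of pairs depends on how many fragments at a gene were captured, so it is not a level that can be set between genes.

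FGF5, a secreted ligand that in the mouse also ends the growth phase of the hair follicle, lies at chr4:80266588-80291017. Its starts are shown because the restriction sites in them set which fragments could be captured. RefSeq (GRCh38.p14) gives 2 starts on the plus strand, with promoter windows of 250 bases before and 50 after the start at chr4:80266338-80266637 and chr4:80268018-80268317. In the sequences, printed 5′ to 3′, capitals mark GATC, the site of DpnII, which reads the same on both strands.
FGF5 first start: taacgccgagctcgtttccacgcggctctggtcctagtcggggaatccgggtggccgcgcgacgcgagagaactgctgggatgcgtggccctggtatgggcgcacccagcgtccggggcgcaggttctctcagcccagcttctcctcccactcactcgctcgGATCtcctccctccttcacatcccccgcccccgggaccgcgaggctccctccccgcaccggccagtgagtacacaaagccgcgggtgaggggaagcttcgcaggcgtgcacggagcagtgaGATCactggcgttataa
FGF5 second start: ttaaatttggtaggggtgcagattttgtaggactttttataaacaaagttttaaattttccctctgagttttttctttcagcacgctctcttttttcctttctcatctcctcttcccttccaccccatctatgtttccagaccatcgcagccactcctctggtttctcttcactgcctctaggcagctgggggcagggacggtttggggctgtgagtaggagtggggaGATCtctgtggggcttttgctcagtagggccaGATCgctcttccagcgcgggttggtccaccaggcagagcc
Each window holds 2 GATC sites, and 41.7% of 35116 RefSeq promoter windows of this length hold at least 1. The site at 80266500 in the first window and both sites in the second are bounds of listed fragments. The first window has 31 CG dinucleotides and the second 6, beside a median of 14 over all windows (quartiles 4 and 28). Neither start base lay inside a listed captured fragment: the nearest ended 89 bp below and began 71 bp above the first start.

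Around the first start, 6 captured fragments between 80265073 and 80268245 gave 25 of the 27 FGF5 pairs, and the far end of the gene gave 2 as the partner of fragments at BMP3. FGF5 had 10 calls in UNC6852, 12 in UNC1999 and 9 in DMSO. Only 1 of the 9 DMSO calls was called in either compound profile, and it was the same pair in both. Contacts of FGF5 reached far: 25 of the 27 spanned more than 500 kb.

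They gathered in 2 regions on opposite sides of the gene. The first, chr4:78944984-78967551, begins 5.55 kb from PAQR3, which encodes a Golgi membrane protein, and lies 1301 to 1318 kb from the FGF5 start fragments. Its 7 pairs had 3 calls in UNC6852, 5 in UNC1999 and 2 in DMSO. The second, chr4:81019683-81067143, spans BMP3, a bone morphogenetic protein family gene, at 739 to 799 kb, and its 10 pairs had 4, 5 and 2 calls in the same order of profiles. In both regions together the calls numbered 7 in UNC6852, 10 in UNC1999 and 4 in DMSO, and among the 10 FGF5 pairs elsewhere they numbered 3, 2 and 5. The counts were thus higher with each compound than in DMSO inside these regions, and lower outside them. Part of this contrast came from the captured fragment chr4:80265737-80266121, with 2 calls in UNC6852, 5 in UNC1999 and 0 in DMSO. Most of its 6 pairs lie in these regions, and all were listed through the compound profiles, which favours the compounds here. The regions were drawn from these same pairs after the values were seen, and the counts are small.

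The strongest contacts of FGF5 all fell in these regions. The pair joining chr4:80265073-80265736 and chr4:78955888-78961869, 1307 kb apart, scored 7.70 in UNC6852, 5.28 in UNC1999 and 10.1 in DMSO. It was the single FGF5 pair called in all 3 profiles, with differences in asinh(score) from DMSO of -0.27 for UNC6852 and -0.64 for UNC1999. From the same captured fragment, a contact 772 kb away inside BMP3 scored 12.3 in UNC6852, 2.99 in UNC1999 and 1.43 in DMSO. From the adjoining fragment, chr4:80265737-80266121, a contact at 783 kb inside BMP3 scored 7.73 in UNC6852, 10.4 in UNC1999 and 0.75 in DMSO. At the end of BMP3 itself, a pair of the first captured fragment at 762 kb scored 5.98 in UNC6852, 4.20 in UNC1999 and 3.88 in DMSO, and a BMP3 fragment 739 kb from the far end of FGF5 scored 0.25, 6.40 and 0.28. A captured fragment inside BMP3, 766 kb away, went the other way, at 0 in UNC6852, 0 in UNC1999 and 5.65 in DMSO, 1 of the 2 DMSO calls in this region.

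Further FGF5 pairs were lower than DMSO, or appeared in 1 profile. The largest drop and gain of a gene are given here and below for each compound among the pairs called in that compound or in DMSO. The largest drop in UNC6852 was in the PAQR3-side region, where a pair of the first captured fragment scored 0 in UNC6852, 0.23 in UNC1999 and 6.66 in DMSO, next to the pair called in all 3. The largest drop in UNC1999 was at the BMP3 region, with 0 in UNC6852, 0 in UNC1999 and 5.94 in DMSO. The largest gain in UNC6852, 1346 kb away at PAQR3, scored 7.30 in UNC6852 and 0 in both UNC1999 and DMSO. The largest gain in UNC1999, 906 kb away at PRKG2, which encodes a cGMP-dependent kinase, scored 6.02 in UNC1999 and 0 in UNC6852 and DMSO. Neighbouring fragments at 1 start thus gave calls to neighbouring partners in different profiles.

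The fragments of the start were not alike. The adjoining fragment at 80265737 had 2 calls in UNC6852, 5 in UNC1999 and none in DMSO over its 6 pairs, with a mean asinh(score) of 1.44, 2.23 and 0.75. The fragment before it, with 7 pairs, had 4, 3 and 3 calls and means of 1.83, 1.68 and 1.97. Over all its pairs FGF5 averaged 1.32 in UNC6852, 1.40 in UNC1999 and 1.37 in DMSO. The gene average thus combined differences from DMSO of opposite sign at 2 adjoining fragments. The 6 pairs of the fragment at 80265737 were listed through the compound profiles alone, which favours a rise over DMSO there. Close to the gene, 2 captured partners had calls in DMSO alone: PRDM8, a gene for a zinc-finger protein 77.2 kb away, at 1.45 in UNC6852, 0 in UNC1999 and 5.59 in DMSO, and a fragment in CFAP299, 69.4 kb away, at 0.48, 1.59 and 5.09. Pairs given here beyond the strongest and the most different were chosen after their values were seen.

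**Figure D2:**
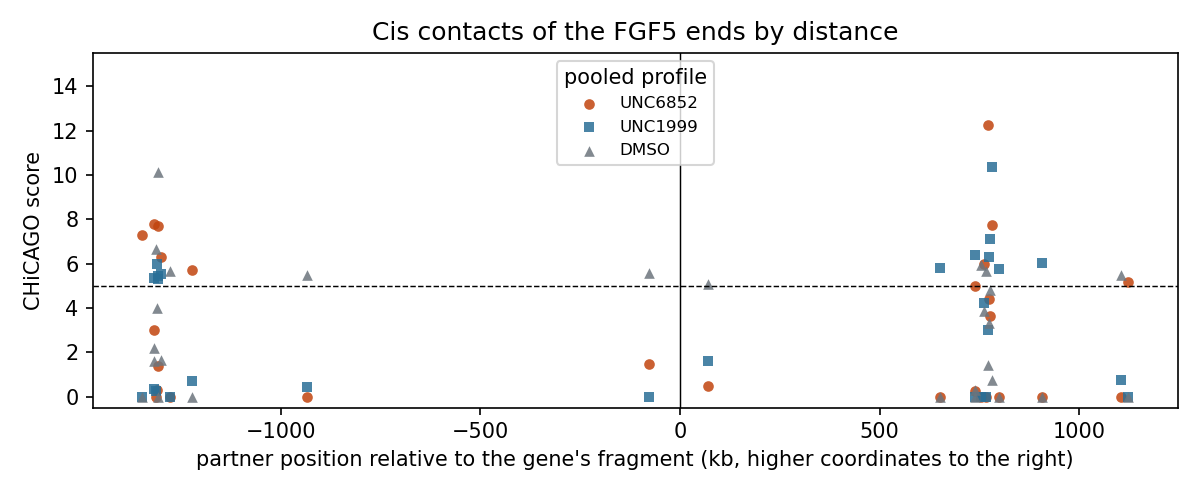
CHiCAGO score (y axis) of each cis contact of FGF5 against the position of the partner relative to the FGF5 fragment in kb (x axis), for the pooled UNC6852, UNC1999 and DMSO profiles. The dashed line is the score of 5 and the vertical line the FGF5 fragment. Contacts gather at 1301 to 1318 kb below and 739 to 799 kb above the gene.

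FGF4, a ligand of the same subfamily that is made by epiblast cells in the mouse, had 1 pair. Its captured fragment at chr11:69771464-69772064 met a fragment 557 kb away that scored 0 in UNC6852, 5.24 in UNC1999 and 1.46 in DMSO. With ends taken as 5000 bp it had 5 pairs, with 0, 3 and 2 calls. No FGF4 pair was called in more than 1 profile under either reach.

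FGF20 and FGF9 belong to 1 subfamily, which acts in the inner ear, the kidney and, for FGF9, the lung and testis of the mouse. FGF20 lies at chr8:16992181-17002345 and had 2 captured fragments, chr8:17000788-17001795 and chr8:17002337-17003594. Its 37 pairs gave 26 calls in UNC6852, 20 in UNC1999 and 19 in DMSO, and 10 were called in all 3 profiles, 27% beside 8.33% of all cis pairs. Among the FGF genes with at least 3 pairs, FGF20 had the highest share of DMSO calls found again in either compound profile.

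FGF20 contacts formed a shoulder on either side of the gene. The lower one, chr8:16778452-16878944, at 127 to 222 kb, holds no protein-coding gene, and its 18 pairs had 13 calls in UNC6852, 10 in UNC1999 and 9 in DMSO. The upper one, chr8:17101354-17166034, at 102 to 162 kb, overlaps MICU3, a regulator of mitochondrial calcium uptake, and ZDHHC2, a palmitoyltransferase gene, and its 16 pairs had 12, 9 and 9 calls. Both shoulders were thus called in every profile, and 3 pairs lay outside them. In the lower shoulder the fragment chr8:16825461-16830682 was called in all 3 profiles from both captured fragments. It scored 14.3 in UNC6852, 8.28 in UNC1999 and 5.89 in DMSO from the first of them, the highest score of any FGF pair, and 9.71, 11.99 and 6.29 from the second.

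The contacts with the highest mean score were shared among the profiles, though ranking by the mean over the profiles itself favours pairs that are high in each. The contact at 150 kb, which holds an end of ZDHHC2, scored 10.9 in UNC6852, 12.8 in UNC1999 and 8.41 in DMSO. A contact at 170 kb in the lower shoulder scored 12.9, 9.56 and 7.55, and one at 222 kb scored 14.1, 7.59 and 7.88. All 3 were above 5 in every profile, and their asinh differences from DMSO were 0.26, 0.53 and 0.58 for UNC6852 and 0.42, 0.23 and -0.04 for UNC1999. In all, 4 FGF20 pairs met the end of ZDHHC2, with 3 calls in UNC6852, 3 in UNC1999 and 2 in DMSO.

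FGF20 averaged 2.41 in UNC6852, 2.15 in UNC1999 and 2.16 in DMSO on the asinh scale, differences of 0.25 and -0.013 from DMSO. In UNC6852, 29 of its 37 pairs scored above DMSO, and in UNC1999 24 of 37 did. The captured fragments split under UNC1999: the one at 17002337 differed from DMSO by 0.31 in UNC6852 and 0.24 in UNC1999, and the one at 17000788 by 0.15 and -0.43. The largest drop with either compound was a pair 3596 kb away in DLC1, which scored 0 in UNC6852, 0 in UNC1999 and 7.57 in DMSO. The largest gain in UNC6852 was a pair at 200 kb with 6.08 in UNC6852, 1.77 in UNC1999 and 0.94 in DMSO, and the largest in UNC1999 was at 205 kb with 3.16, 6.76 and 0.91. These last 2 partners adjoin each other in the lower shoulder.

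FGF9, at chr13:21671073-21704498, had 6 pairs with 3 calls in UNC6852, none in UNC1999 and 4 in DMSO. The 5 pairs of its captured fragment, chr13:21671630-21672074, ran to partners 526 to 1115 kb away, all at higher coordinates. In UNC1999 each of these 5 pairs scored between 0 and 0.83, while 3 of them were called in UNC6852 and 3 in DMSO. The pair at 607 kb scored 5.17 in UNC6852, 0.14 in UNC1999 and 5.66 in DMSO, and it was the single FGF9 pair called in 2 profiles. The pair at 1067 kb scored 0.70, 0.83 and 7.88, and the pair at 1078 kb scored 5.34, 0 and 0.

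The sixth FGF9 pair joined the far end of FGF9 to a captured fragment in KLF5, a zinc-finger transcription factor gene, 51358 kb away, and scored 0 in UNC6852, 0 in UNC1999 and 12.5 in DMSO. FGF9 averaged 1.57 in UNC6852, 0.18 in UNC1999 and 1.83 in DMSO on the asinh scale. Its difference of -1.65 for UNC1999 was the single one among the FGF genes with at least 3 pairs to pass 0.5 in size. Of the 4978 genes with at least 3 cis pairs, 16.3% lay at -0.5 or less for UNC1999, and 0.643% had a difference as low as that of FGF9. None of the 6 FGF9 pairs was called in UNC1999, so all were listed through the other profiles. The listing thus favours a low UNC1999 value for FGF9. With the captured fragment alone, and so without KLF5, the FGF9 difference was -1.34 for UNC1999 and 0.34 for UNC6852, against -0.26 for UNC6852 with all 6 pairs. The value rests on 1 captured fragment of 445 bp, and with ends taken as 5000 bp the 16 pairs of FGF9 gave 8, 2 and 7 calls and a UNC1999 difference of -0.54.

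**Figure D3:**
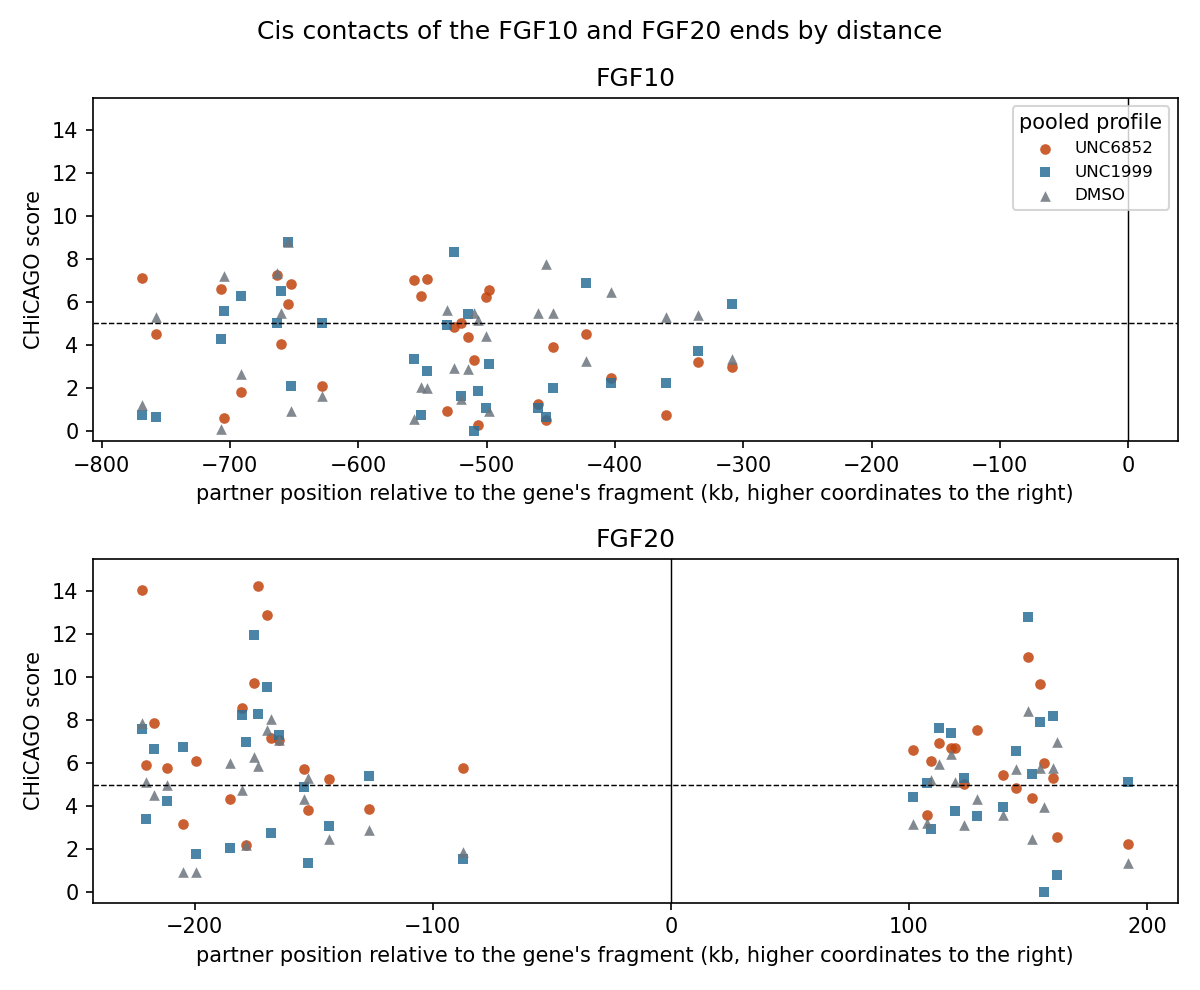
CHiCAGO score (y axis) of each cis contact of FGF10 (above) and FGF20 (below) against the position of the partner relative to the gene's fragment in kb (x axis, different spans), for the pooled UNC6852, UNC1999 and DMSO profiles. All FGF10 partners lie on the lower-coordinate side, FGF20 partners on both, and the FGF20 pair at 3596 kb lies outside the axis.

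FGF10, a mesenchymal ligand needed for lung and limb buds in the mouse, lies at chr5:44300247-44389420. Its start is shown as the contrast to FGF5, since the DpnII site is missing from it. RefSeq places the start on the minus strand, with the promoter window at chr5:44389371-44389670.
FGF10: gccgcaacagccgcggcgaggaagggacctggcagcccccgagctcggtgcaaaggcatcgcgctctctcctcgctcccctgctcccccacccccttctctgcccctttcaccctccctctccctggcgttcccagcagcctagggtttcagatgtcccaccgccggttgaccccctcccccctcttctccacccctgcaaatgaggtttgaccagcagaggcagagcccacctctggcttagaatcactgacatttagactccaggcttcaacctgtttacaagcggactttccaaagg
The window holds no GATC and 13 CG dinucleotides. The start lay between the captured fragments, chr5:44387384-44388806 inside the gene, which ended 614 bp below the start base, and chr5:44390309-44390965 before it, which began 889 bp above. All 29 FGF10 pairs came from these 2 fragments.

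FGF10 had 11 calls in UNC6852, 9 in UNC1999 and 14 in DMSO. All 29 partners lay at lower coordinates, on the side of the gene's far end, 309 to 768 kb away. Among 565 genes with at least 20 cis pairs, 19.6% had all partners on 1 side. The outermost FGF10 partners lay in NNT, the gene of a mitochondrial transhydrogenase, and the others in the stretch between NNT and FGF10. None of the partners lay at an annotated end of a protein-coding gene.

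Calls of FGF10 differed by distance among the profiles. The 4 farthest partner regions, 498 to 768 kb away, held 21 pairs with 11 calls in UNC6852, 7 in UNC1999 and 8 in DMSO. The 4 nearest, 309 to 460 kb away, held 8 pairs with no call in UNC6852, 2 in UNC1999 and 6 in DMSO. In the nearest regions the highest UNC6852 score was 4.48, so these pairs were listed through the other profiles. The split into near and far was made after the values were seen.

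The region chr5:43828944-43893695, at 498 to 557 kb, had 11 pairs with 6 calls in UNC6852, 2 in UNC1999 and 3 in DMSO. The region chr5:43925642-43942311, at 448 to 460 kb, had 3 pairs, each called in DMSO and in neither compound profile. It was the single FGF partner region of 3 or more pairs that was not called in all 3 profiles. Its strongest pair, at 454 kb, scored 0.51 in UNC6852, 0.62 in UNC1999 and 7.75 in DMSO, the largest drop of an FGF10 pair in UNC6852.

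The contact of FGF10 that held in all profiles lay farther out. The pair to chr5:43730580-43735843, 655 kb away, scored 5.91 in UNC6852, 8.80 in UNC1999 and 8.79 in DMSO. The neighbouring fragment, met from the second captured fragment at 663 kb, scored 7.26, 4.997 and 7.33, and so missed a call in UNC1999 by a margin in the third decimal. A pair at 525 kb scored 4.81, 8.33 and 2.94. The asinh differences from DMSO of these 3 pairs were -0.39, -0.01 and 0.48 for UNC6852 and 0.00, -0.38 and 1.02 for UNC1999.

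The largest gain of an FGF10 pair in UNC6852 was at 707 kb in NNT, at 6.60 in UNC6852, 4.25 in UNC1999 and 0.07 in DMSO. The largest drop in UNC1999, at 510 kb, scored 3.31 in UNC6852, 0 in UNC1999 and 5.47 in DMSO, and the largest gain in UNC1999 among pairs called there or in DMSO, at 628 kb, scored 2.07, 5.03 and 1.60. The gene average was 1.90 in UNC6852, 1.74 in UNC1999 and 1.89 in DMSO on the asinh scale, differences of 0.01 and -0.16.

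FGF19, FGF4 and FGF3 lie in 1 cluster on chromosome 11, and 1 pair joined an end of FGF19 to an end of FGF3. FGF19, an endocrine ligand that represses bile acid synthesis in the liver, lies at chr11:69698238-69704022, and FGF3, a ligand of inner ear and tail development in the mouse, at chr11:69809968-69819416, with FGF4 between them at chr11:69771022-69775341. The captured fragment at the FGF19 end, chr11:69704249-69705700, met the end of FGF3 opposite its start, 106 kb away. The contact scored 1.09 in UNC6852, 5.02 in UNC1999 and 5.09 in DMSO, so both calls lay close to the threshold of 5. This is the pair counted for both genes.

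FGF19 had 6 pairs with 2 calls in UNC6852, 3 in UNC1999 and 3 in DMSO. The partner next to the FGF3 end, chr11:69802610-69808280, scored 11.5 in UNC6852, 5.39 in UNC1999 and 1.50 in DMSO. It was the largest gain of FGF19 with either compound, 1.94 and 1.19 in asinh(score), while the pair to the FGF3 end itself was lower in UNC6852 than in DMSO. The 4 FGF19 pairs between 69792337 and 69839145 had 2 calls in UNC6852, 3 in UNC1999 and 1 in DMSO. The largest drop with either compound lay on the other side, 281 kb away, at 0.32 in UNC6852, 0 in UNC1999 and 5.81 in DMSO. The gene average was 1.68, 1.74 and 2.04, differences from DMSO of -0.36 for UNC6852 and -0.31 for UNC1999.

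FGF3 had no captured fragment at its ends and was met as a partner 4 times, each time by a fragment in or beside FGF19, 104 to 117 kb away. These fragments lay between 69701165 and 69707290. The one inside the FGF19 body scored 2.94 in UNC6852, 2.32 in UNC1999 and 6.42 in DMSO, and the one at 69706448 scored 7.44, 3.56 and 1.37. The one at 69705701, which met the start side of FGF3, scored 0, 5.06 and 1.34. Each of the 3 profiles thus called a contact between FGF3 and a fragment in or beside FGF19, with 1 call in UNC6852, 2 in UNC1999 and 2 in DMSO. The pair with the FGF19 end itself was called in UNC1999 and DMSO and not in UNC6852. UNC1999 and DMSO shared 1 of these pairs, and the UNC6852 call was in neither. The FGF3 average was 1.36 in UNC6852, 2.05 in UNC1999 and 1.78 in DMSO, differences of -0.42 and 0.27.

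FGF8, FGF17 and FGF18 form the subfamily of ligands made by organising centres of the embryo such as the midbrain-hindbrain border. FGF8, at chr10:101770109-101780369, was met by 1 captured fragment in DPCD, chr10:101602038-101603254, on 2 adjoining fragments. The contact at 181 kb scored 8.95 in UNC6852, 6.01 in UNC1999 and 5.71 in DMSO and was called in all 3 profiles. The contact at 176 kb scored 5.04, 3.80 and 2.71. Both pairs had the same order of profiles, and both FGF8 fragments also lie within 1000 bp of an end of NPM3, a nucleoplasmin family gene, so the contact cannot be assigned to FGF8 alone.

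FGF17, at chr8:22039672-22048809, had 8 pairs with 1 call in UNC6852, 4 in UNC1999 and 3 in DMSO, and no pair was called in more than 1 profile. Its captured fragment, chr8:22047761-22047990, also lies within 1000 bp of an end of DMTN, which encodes the actin-binding protein dematin. The highest mean scores were at HR, a nuclear receptor corepressor gene 73.3 kb away, with 2.09 in UNC6852, 5.87 in UNC1999 and 0.78 in DMSO, and at SORBS3, the vinexin gene 517 kb away, with 0, 8.61 and 0. A contact in SLC39A14, a metal ion transporter gene, at 360 kb scored 0.64, 7.32 and 0, and another in that gene at 343 kb scored 5.54, 0.64 and 0.51. These are calls of single profiles. The largest drop, in PEBP4 at 682 kb, scored 0.33 in UNC6852, 0 in UNC1999 and 5.35 in DMSO. The gene average was 0.93, 1.49 and 1.09, differences of -0.16 and 0.40.

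FGF18, at chr5:171419647-171457626, which acts in cartilage and bone growth, had 1 pair at 166 kb that scored 5.28 in UNC6852, 3.97 in UNC1999 and 2.92 in DMSO. The nearest listed captured fragment above its start began 1499 bp away, outside the reach. With ends taken as 5000 bp it had 19 pairs with 10 calls in UNC6852, 7 in UNC1999 and 9 in DMSO, and over the whole gene body 43 pairs with 18, 19 and 19. The single pair within 1000 bp was higher with each compound than in DMSO, and the wider sets averaged -0.24 and -0.29 for UNC6852. At 5000 bp FGF8 had 23 pairs in place of 2, with 12, 7 and 12 calls, and FGF17 had 33 in place of 8, with 9, 19 and 11. In all, 290 pairs lay within 5000 bp of the FGF genes, with 128 calls in UNC6852, 126 in UNC1999 and 129 in DMSO.

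**Figure D4:**
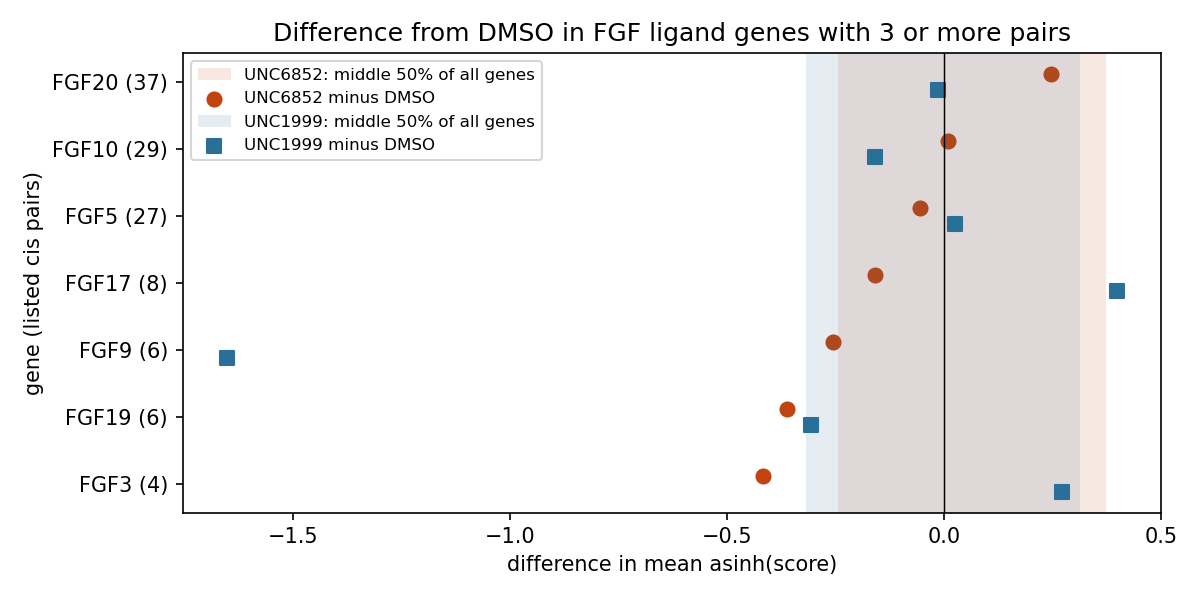
Difference in mean asinh(score) from DMSO (x axis) for the 7 FGF ligand genes with at least 3 cis pairs (y axis, pairs in brackets), for UNC6852 and UNC1999. Shaded bands are the middle 50% of the 4978 genes with at least 3 pairs. FGF9 under UNC1999, at -1.65, is the single point beyond 0.5 in size.

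Over the 7 FGF genes with at least 3 pairs, the median difference from DMSO was -0.16 for UNC6852 and -0.013 for UNC1999 on the asinh scale, beside 0.069 and -0.0075 over the 4978 genes. Above 0 were 2 of the 7 for UNC6852 (FGF20 and FGF10) and 3 of the 7 for UNC1999 (FGF17, FGF3 and FGF5), beside 56.4% and 49.2% of all genes. None of the 7 reached 0.5 for UNC6852 in either direction, where 18.3% of all genes lay at 0.5 or more and 13.6% at -0.5 or less. For UNC1999 none lay at 0.5 or more, where 15.7% of all genes did, and FGF9 alone lay at -0.5 or less. Both differences share the DMSO profile. By single pairs, 67 of 120 scored above DMSO in UNC6852 and 67 of 120 in UNC1999, of which FGF20 gave 29 and 24; over all cis pairs the numbers were 77556 and 73196 of 152688.

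When partners of a gene less than 20 kb apart were joined into regions, the contacts were more alike across profiles. The FGF genes had 10 regions of 3 or more pairs, and 9 of them (90.0%) were called in all 3 profiles, beside 71.6% of such regions over all genes. All 10 were called in DMSO, and 9 of the 10 were called in UNC6852 and 9 in UNC1999, beside 90.2% and 89.2% of DMSO regions over all genes. Over FGF regions of any size, 14 of 29 DMSO regions (48.3%) were called in UNC6852 and 11 of 29 (37.9%) in UNC1999, beside 40.2% and 39.0% over all genes. A region with more pairs has more chances to be called, so the regions of 3 or more pairs hold the better-covered contacts.

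**Figure D5:**
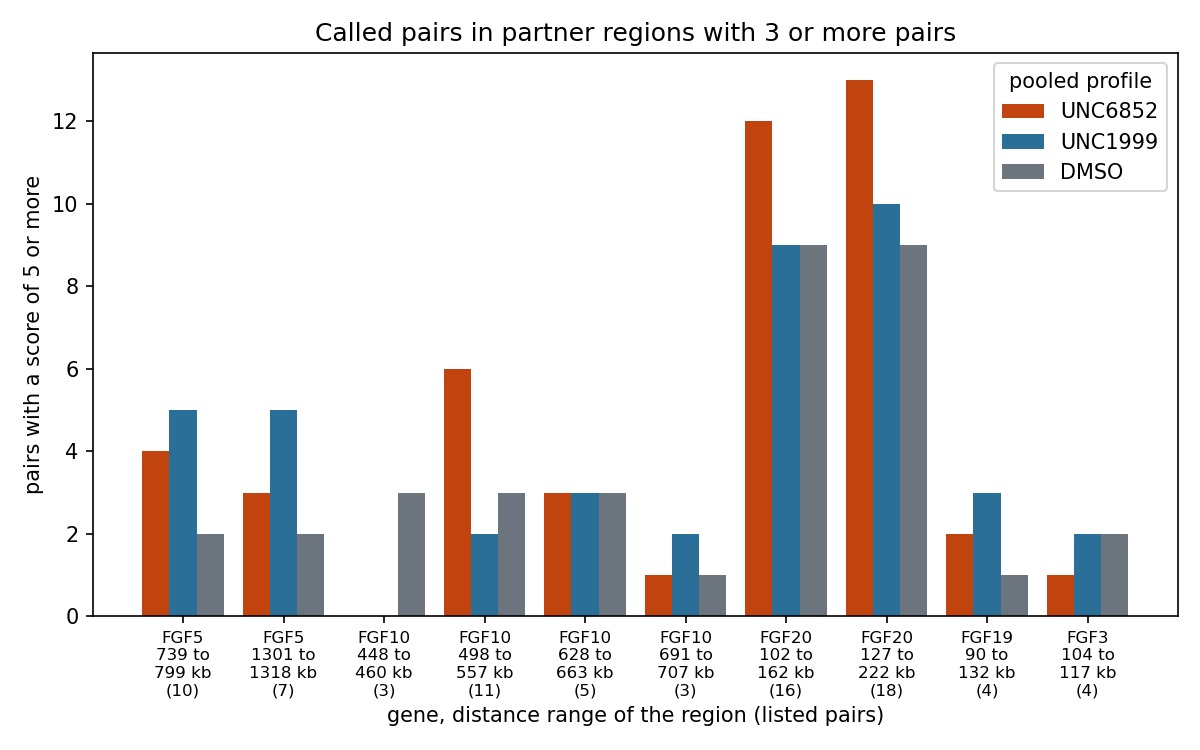
Number of pairs with a score of 5 or more (y axis) in each FGF partner region of at least 3 pairs (x axis, with gene, distance and listed pairs), in the pooled UNC6852, UNC1999 and DMSO profiles from left to right. The FGF10 region at 448 to 460 kb has 3 calls in DMSO and none in the others.

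Beyond the ligands described, 55 further genes of the FGF pathway were examined: other ligands, receptors, adaptors, feedback genes and matrix proteins. Of these 26 had a cis pair and 10 had at least 3. Their median difference from DMSO was 0.12 for UNC6852 and 0.14 for UNC1999, beside 0.069 and -0.0075 over all genes with at least 3 pairs. For UNC6852, 2 of the 10 lay at 0.5 or more and 2 at -0.5 or less, beside 18.3% and 13.6% of all genes. For UNC1999, 3 lay at 0.5 or more and none at -0.5 or less, beside 15.7% and 16.3% of all genes. With 10 genes these counts do not set the pathway apart from the background.

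Among the 10, the receptor gene FGFR2 had the highest difference from DMSO for each compound. FGFR2 averaged 1.55 in UNC6852, 2.00 in UNC1999 and 0.84 in DMSO over 4 pairs, differences of 0.71 and 1.17, with 1, 3 and 0 calls. All 4 pairs were thus listed through a compound profile, which favours a rise over DMSO. FGFR1 averaged 2.27, 2.50 and 1.93 over 6 pairs, differences of 0.34 and 0.57, with 3, 5 and 1 calls. ETV5, a transcription factor gene switched on by FGF signalling, averaged 1.93, 1.87 and 1.30 over 5 pairs, differences of 0.62 and 0.56. Lowest for UNC6852 were KL, the co-receptor klotho, at -0.64, and IL17RD, a feedback inhibitor of the pathway, at -0.51, which differed by 0.13 and 0.15 for UNC1999. Lowest for UNC1999 were HS6ST2, a heparan sulphate sulphotransferase gene, at -0.17, and FLRT2, a gene for a membrane protein with leucine-rich repeats, at -0.015. These genes had 4 to 14 pairs each, and without replicates no difference among them can be called.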

How the data were processed

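Poised-enhancer capture Hi-C was made from 45 HNES1 libraries, 15 per condition. Per the labels, the deposited value is a CHiCAGO score in 1 column pooled over the libraries of a condition, and scores were used as deposited. The build is GRCh38 per the submitters' processing notes, and the aligner, caller settings and read depth are not given in the sources used here. Captured fragments had a median length of 625 bp and other partners 5266 bp, and no listed pair lay below 5 in every profile.

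Genes were placed with RefSeq GRCh38.p14 (20033 protein-coding genes), without strand. Calls were scores of 5 or more. Differences were means of asinh(score) per gene, and folds were not used since 11.1 to 12.5% of cis scores are 0. Intervals are Clopper-Pearson at 95% and cover counting error only, for pairs that share fragments. There was no replicate and no test. Members and lists were chosen with earlier results of these data known. For each gene the 3 pairs with the highest mean score and the largest gain and drop per compound, among pairs called in that compound or in DMSO, were named, with partner genes at those ends, and the 2 highest and 2 lowest pathway genes. The per-gene means were checked by planting known shifts in 1 of the score columns, which checks the arithmetic alone. Recovery was required for unshifted genes and for rises, and not for falls. The placing of fragments was checked on a made-up gene. Promoters of 4 genes (FGF3, FGF5, FGF10 and FGF18) were in the RefSeq sequence table. Python 3.11.15, numpy 2.4.6, pandas 2.3.3, scipy 1.17.1 and matplotlib 3.10.9 were used. Cis pairs numbered 152688 and trans pairs 281836 of 434524 listed.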

Additional observations from a re-analysis of the deposited data

How the results depend on the processing

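No paired analysis was possible because each condition is a single pooled column. Of 14 alternatives, score thresholds, the reach around a gene end and filters moved values most, on small numbers of pairs. The share of DMSO calls also found in UNC6852 (35.2%) was 53.8% at a threshold of 7 (36.4% over all cis pairs), 0% at 10 (2 DMSO calls; 44.3% over all cis pairs), 60.0% with ends at 0 bp, 88.9% for pairs whose mean score is at least 5 (74.6% over all cis pairs) and 20% with the gene as other end. For UNC1999 (31.5%) it was 0% at a threshold of 10 (41.9% over all cis pairs), 73.3% with ends at 0 bp and 83.3% at a mean score of at least 5 (70.8% over all cis pairs). The ratio of calls to DMSO was 1.77 at a threshold of 7 and 3 at 10 for UNC6852, and 1.5 at 10 for UNC1999. The median FGF gene difference for UNC6852 (-0.16) turned to 0.061 with ends at 0 bp, 0.087 at 5000 bp and 0.31 at a mean score of at least 5, and was -0.45 after quantile normalization, -0.0098 over gene bodies, -0.055 for pairs up to 2 Mb, -0.052 with the gene as bait and -0.42 as other end. For UNC1999 (-0.013) it was -0.20 after quantile normalization, and turned to 0.097 with ends at 0 bp, 0.018 at 5000 bp, 0.027 for pairs up to 2 Mb, 0.20 at a mean score of at least 5, 0.27 with the gene as other end and 0.11 for genes with at least 1 pair. The sign of either median is therefore not settled. Some of these medians rest on few genes: 2 with ends at 0 bp, 3 at a mean score of at least 5, and FGF3 alone as other end. The pathway median for UNC6852 (0.12) turned to -0.14 after quantile normalization, -0.019 with neighbouring partners merged and -0.29 with the gene as bait, and was 0.015 up to 2 Mb, 0.25 at a mean score of at least 5, 0.28 as other end and 0.67 for genes with at least 1 pair. For UNC1999 (0.14) it turned to -0.072 after quantile normalization and -0.013 at a mean score of at least 5, and was 0.26 with ends at 0 bp, 0.0095 as bait and 0.37 as other end. Quantile normalization moved the median of all genes to -0.14 for UNC6852 and -0.23 for UNC1999; relative to it the FGF medians were -0.31 and 0.033, beside -0.23 and -0.0060 on scores as deposited. Of the gene differences, those of FGF20 (0.084 to 0.33) and FGF8 (0.12 to 0.60) for UNC6852, FGF17 (0.11 to 0.62) and FGF9 (-3.22 to -0.54) for UNC1999, and FGF4 for both compounds kept their sign in every alternative that gave a value. Many of these alternatives use the same few pairs. Within 1000 bp, the 1 FGF4 pair was called in UNC1999 alone and no FGF9 pair was called there. The listing thus favours the UNC1999 signs of both genes. FGF8 had 2 pairs, met by 1 captured fragment. The FGF18 difference for UNC6852 turned to -0.24 within 5000 bp and -0.29 over the gene body. The causes of these shifts were not tested. Read depth is unknown, so what depth limits cannot be stated.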

Other observations

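Pairs of the FGF ligand genes with fragments on other chromosomes numbered 147, with 49 calls in UNC6852, 47 in UNC1999 and 51 in DMSO. These are 33.3%, 32.0% and 34.7% of the 147, beside 34.3%, 36.1% and 30.0% of all trans pairs. None of the 147 was called in 2 or more profiles, beside 942 of 281836 trans pairs over the whole table (0.334%). FGF5 had 48 of these trans pairs, more than its 27 cis pairs, with 14 calls in UNC6852, 15 in UNC1999 and 19 in DMSO, and FGF10 had 34, with 12, 13 and 9. FGF20 had 14 trans pairs beside 37 cis pairs, with 3, 5 and 6 calls. FGF4, with 1 cis pair, had 13 trans pairs, with 7, 1 and 5 calls.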
